A study of Homo sapiens with 4 samples.

Results

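The genes described here encode the subunits, assembly factors and regulators of the proteasome. They are all genes in the deposited tables with a coding (NM_) RefSeq transcript whose symbol starts with PSM, a letter from A to G and a number. This gave 50 of 18763 named coding genes, with 100 transcript accessions in 122 of the 53209 entries of the tables, on 17 chromosomes. PSMC3IP, a cofactor of meiotic recombination, and PSME3IP1, a binding partner of PSME3, match the symbol pattern but are not subunits, and they were kept as a group of their own.

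The proteasome is the main protease of the cytosol and the nucleus. Its core is a barrel of stacked rings: outer rings of alpha subunits gate the entrance, and inner rings of beta subunits carry the active sites. A cap of ATPases and non-ATPase subunits binds ubiquitin chains, removes them and feeds unfolded substrate into the core, while other activators open the core without ubiquitin. Subunit genes are transcribed in nearly all cells, and cancer cells depend on them strongly.

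The RNA came from a miRNA pull out in DU-145, an epithelial line established from a prostate carcinoma metastasis. Cells received 60 nM of a miR-28-5p duplex without a tag (miR-28CT, 2 libraries, the background of the assay) or of a mix of duplexes with biotin at the 3′ end and a thiouridine at nucleotide 8 or 18 (miR-28BIO, 2 libraries). Thiouridine crosslinks to bound RNA under ultraviolet light, which all cells received, and RNA held by streptavidin beads was sequenced from stranded total RNA libraries. Both arms thus received miR-28-5p, and the comparison asks which RNAs the tagged miRNA brings down above background. RNA before the pull out was not measured in these libraries, so a difference in capture and a difference in cellular level cannot be told apart.

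The line was checked by its markers. KRT8, KRT18, KRT19, EPCAM, CDH1 and VIM were above 0 in every library, from 0.852 for CDH1 to 249 scaled FPKM for VIM, while KLK3 and TMPRSS2, genes of the luminal prostate epithelium, were listed at 0. Among the 8 genes of blood, fibroblasts and endothelium, CD68 reached 9.51 and the others did not exceed 0.209.

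Values are FPKM (fragments relative to transcript length and to the library's mapped reads), divided by a factor per library and summed over the coding transcripts of a gene, and are given in the order miR-28CT 1, miR-28CT 2, miR-28BIO 1 and miR-28BIO 2. Estimated totals of 17.9, 13.0, 17.3 and 14.7 M reads lie behind the FPKM of the 4 libraries, of which 40739, 36195, 32034 and 32015 reads fell on the proteasome genes. They held 1.34%, 1.33%, 1.11% and 1.05% of the FPKM of all coding genes, the higher shares being those of miR-28CT. Of the FPKM of all transcripts, non-coding ones included, they held 0.676%, 0.185%, 0.831% and 0.426%, which is higher in miR-28BIO within each replicate number. In all, 44 of the 50 genes reached a mean scaled FPKM of 0.5 and were tested among 11462 genes. PSMA8, PSMB3, PSMB8, PSMB9, PSMB11 and PSMC1 did not.

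A match to miR-28-5p nucleotides 2 to 8 reads AGCTCCT in the sense strand of a transcript. It was searched in the reference transcript of each gene, and stretches of at most 30 bases around 5 of the matches are shown because these genes span the range from higher to lower values in miR-28BIO. Capitals mark the match, and the strand is that of the gene. In hg38, the matches lie in exon 2 of PSMF1 (chr20:1125587-1125616, plus strand, coding), in its last exon (chr20:1165302-1165331, plus strand, 3′UTR), in exon 45 of PSME4 (chr2:53866778-53866807, minus strand, coding), in exon 5 of PSMD5 (chr9:120829120-120829149, minus strand, coding) and in exon 5 of PSMB6 (chr17:4798061-4798090, plus strand, coding).
PSMF1 coding: tgggtccagaaAGCTCCTtgtgaaagccat
PSMF1 3′UTR: ctttcaccatcAGCTCCTcccctttcacca
PSME4 coding: ctggatgccccAGCTCCTcatgaatctcag
PSMD5 coding: attggtaacccAGCTCCTgagagagctgac
PSMB6 coding: gaggctccgggAGCTCCTacatctatggct

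Most proteasome genes had lower values in miR-28BIO than in miR-28CT, and none passed the test. The median log2 fold change (miR-28BIO over miR-28CT, on log2 of scaled FPKM + 0.1) was -0.56 over the 44 genes and -0.08 over all 11462. It was negative for 34 of 44 genes (36 with non-coding records added, median -0.60), against 55.5% of all genes tested. After limma with Benjamini-Hochberg adjustment, 0 of 44 were called lower, against 0.0262% of all genes, and 0 higher, against 0%. The lowest adjusted p was 0.470, that of PSMA3. At an unadjusted p under 0.05, PSME2 was lower (background 0.864%) and PSMA3 and PSMB2 were higher (background 2.26%). The coding transcripts of PSMA3 were listed at 0 in both controls. With the non-coding record of the gene added to the sum, its log2 fold change was -0.12, which left PSMB2 alone as higher. With the replicate number as a block, 18 of the 44 genes were lower (background 14.1%) and 6 higher (background 9.43%) at this cut. PSME2 did not stay under 0.05 without scaling, with upper quartile scaling or without a trend, nor PSMB2 without a trend, and neither did with any library left out.

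The arms did not overlap for 15 genes. Both miR-28BIO values lay below both miR-28CT values for 11 of the 44 genes, against 12.6% of all genes, and above them for 4, against 12.4%. Without scaling, the counts were 8 lower, against 8.50% of all genes, and 6 higher, against 15.6%. Adding non-coding records to the sums gave 12 lower, against 12.6%, and 3 higher, against 12.3%. The 11 were PSMA2, PSMA6, PSMB7, PSMC3IP, PSMC4, PSMD2, PSMD4, PSMD10, PSMD14, PSME2 and PSMG2, and the 4 were PSMA3, PSMB2, PSMD5 and PSMF1. When each miR-28BIO library was set against the miR-28CT library of its own number, 31 genes were lower in both comparisons, against 38.7% of all genes, 7 were higher in both, against 30.1%, and 6 went opposite ways. Without scaling, the median of all genes moved by 0.16 to 0.08 and that of the proteasome genes to -0.39, so the distance between the medians, -0.48 with scaling, was -0.47. Without miR-28CT 2, the medians were -0.26 for the proteasome genes and -0.05 for all genes.

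**Figure D1:**
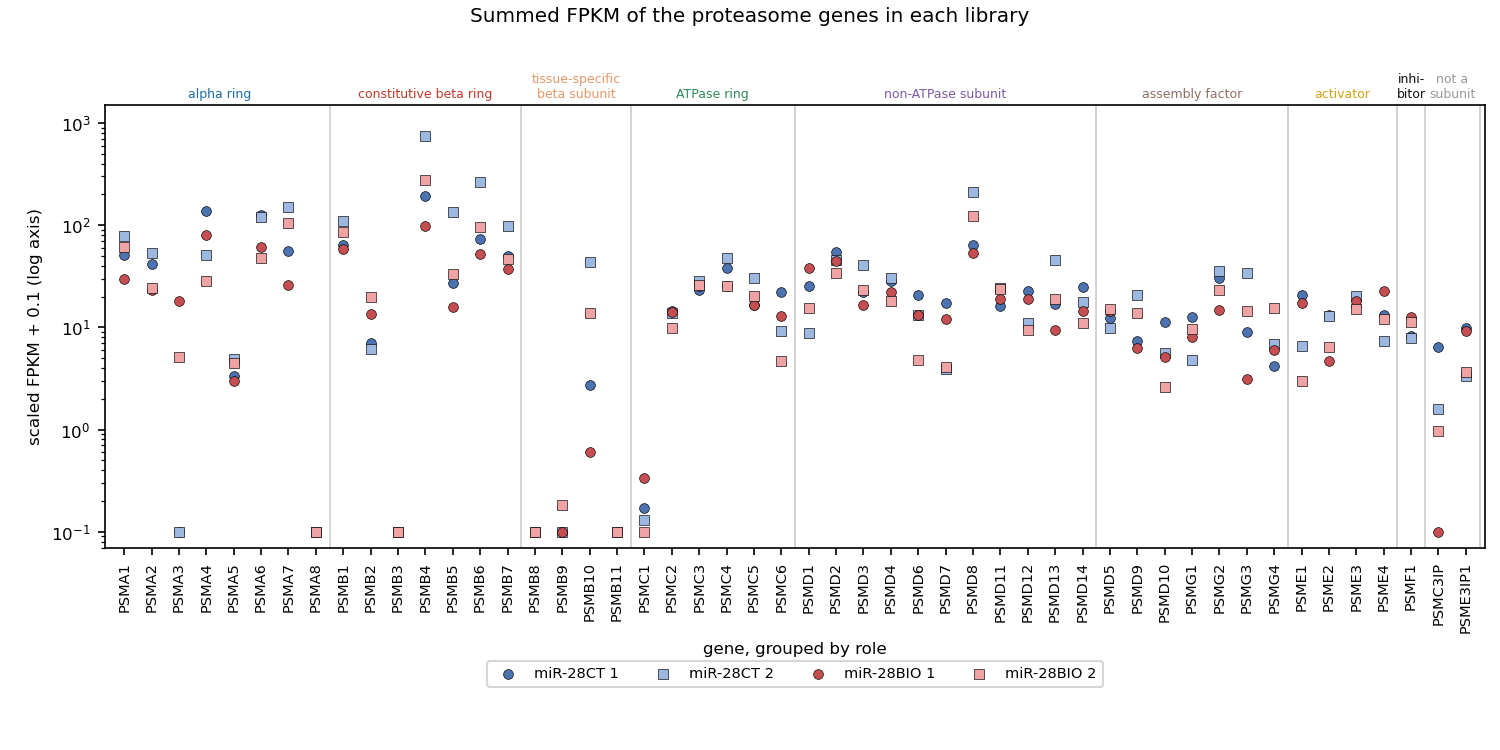
Summed scaled FPKM plus 0.1 (log axis) of the 50 genes, grouped by role, with 1 point per library (blue miR-28CT, red miR-28BIO; circles replicate 1, squares replicate 2). PSMB4 is the highest gene in each library, and points on the lowest line are genes listed at 0.

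The alpha ring was the role group in which the arms lay farthest apart relative to their spread. Its summed scaled FPKM was 417 and 456 in miR-28CT and 241 and 275 in miR-28BIO, a log2 difference of -0.76. The arms did not overlap (exact permutation test, two-sided, p = 0.33, the smallest that 2 against 2 libraries allow). Of the 7 alpha genes tested, 6 had a negative log2 fold change.

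Within this ring, PSMA6 had the highest mean, with 127 and 119 in miR-28CT and 60.6 and 47.1 in miR-28BIO. Its log2 fold change was -1.20 (SE 0.53), and the arms did not overlap. RefSeq lists 4 pseudogenes of it, whose reads could be shared with it. Arms were apart in PSMA2 too, with 41.9 and 53.4 against 23.1 and 24.4. By contrast, PSMA4 and PSMA7 followed the replicate number more than the arm. PSMA4 was at 139 and 50.5 in miR-28CT and 80.1 and 28.4 in miR-28BIO, the highest of the ring in both replicate 1 libraries, and PSMA7 at 55.6 and 150 against 25.9 and 105, the highest in both replicate 2 libraries. Of the alpha and constitutive beta genes above 0, PSMA5 was the lowest in every library, at 3.21, 4.82, 2.88 and 4.42, although alpha subunits enter the core in equal number. The testis gene PSMA8 was listed at 0 throughout.

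In the inner ring, replicates of an arm lay further apart than in the alpha ring. The constitutive beta genes summed to 415 and 1352 in miR-28CT and 276 and 560 in miR-28BIO, so the arms overlapped. Their log2 difference was -0.93 (exact permutation p = 0.667). With a library left out, it ran from -1.78 (without miR-28CT 1) to -0.08 (without miR-28CT 2). PSMB4, a structural beta subunit, was the most abundant at 194, 740, 98.8 and 278. In miR-28CT 2, it alone exceeded the sum of the alpha ring (740 against 456, or 491 with the non-coding record of PSMA3). In miR-28BIO 2, it was near that sum (278 against 275, or 301 with the record). Ratios of PSMB4 to PSMA5 ran from 34.3 in miR-28BIO 1 to 154 in miR-28CT 2.

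The catalytic subunits were all lower in miR-28BIO of the same number. PSMB5, the chymotrypsin-like site and the main target of proteasome inhibitor drugs, was listed at 27.3 and 133 against 15.8 and 33.5 (log2 fold change -1.39, SE 1.00; -0.25 without miR-28CT 2 and -2.53 without miR-28CT 1). PSMB6, the caspase-like site, was at 73.2 and 267 against 52.7 and 96.6, and PSMB7, the trypsin-like site, at 50.2 and 97.2 against 37.0 and 46.6. Of these 3, only PSMB7 had arms that did not overlap.

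PSMB2 went the other way. This structural beta subunit had 6.88 and 6.03 in miR-28CT and 13.5 and 19.6 in miR-28BIO, so both miR-28BIO libraries lay above both controls. Its log2 fold change of 1.32 (SE 0.45) was the highest among the 42 tested genes listed above 0 in every library (limma with Benjamini-Hochberg adjustment, adjusted p = 1.00). The main transcript of PSMB2 has 4376 bases, the longest of the core genes.

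PSMB3, also a structural beta subunit that every proteasome needs, was listed at 0 in all 4 libraries, on chromosome 17 and on its alternate contig. Zeros of this kind were common for genes annotated on an alternate contig as well: 566 of 730 such coding genes (77.5%) were listed at 0 in all libraries, against 4521 of 18018 others (25.1%). PSMB8 and PSMB9, the interferon-induced catalytic subunits encoded in the histocompatibility region, also have copies on alternate contigs. PSMB8 was listed at 0, and PSMB9 reached 0.082 in miR-28BIO 2 alone. The cause of the low values of PSMB3, PSMB8 and PSMB9 was not tested, and expression of these genes cannot be read from them.

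PSMB10, the immunoproteasome counterpart of PSMB7, has no such copy and was listed at 2.63 and 43.5 in miR-28CT and at 0.507 and 13.8 in miR-28BIO. Replicate 2 exceeded replicate 1 by 16.6-fold and 27.2-fold in the respective arms, the widest replicate difference of any proteasome gene measured above 0 in all libraries. Within replicate numbers 1 and 2, PSMB10 was lower in miR-28BIO, with log2 differences of -2.17 and -1.65. Its log2 fold change of -1.91 (SE 2.15) turned positive without miR-28CT 2 (0.09) or without miR-28BIO 1 (0.34). In those fits the replicate numbers are unequally represented in the arms. The thymus subunit PSMB11 was listed at 0.

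The ATPase ring, which unfolds substrates at the base of the cap, summed to 114 and 129 in miR-28CT and 93.8 and 85.7 in miR-28BIO (log2 difference -0.44, arms apart, exact permutation p = 0.33). PSMC4 had its highest mean, at 37.7 and 47.6 against 25.1 and 25.5. PSMC3 stayed within a narrow band, with 23.3, 28.3, 25.1 and 25.8. At the other end, PSMC1 did not exceed 0.232. The RefSeq table lists 13 pseudogenes of it, and shared reads were not measured, so its level is uncertain and the cause of the low value open.

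The 11 non-ATPase subunits summed to 312 and 454 in miR-28CT and 262 and 285 in miR-28BIO (log2 difference -0.46, arms apart, exact permutation p = 0.33; -0.19 without miR-28CT 2 and -0.73 without miR-28CT 1). PSMD8, a lid subunit, led with 63.5 and 213 against 53.9 and 124. PSMD7, the partner of the deubiquitinase PSMD14, had the lowest mean at 17.2, 3.79, 12.1 and 3.95. For PSMD8 and PSMD7, the libraries sorted by replicate number, in opposite directions.

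PSMD14, which cleaves ubiquitin chains from substrates, was at 24.6 and 17.7 against 14.3 and 10.8, and PSMD4, a ubiquitin receptor, at 28.5 and 30.5 against 21.9 and 18.1. In both genes the arms did not overlap. PSMD1, the large scaffold of the base, was one of the few with higher values in miR-28BIO of the same number: 25.4 and 8.71 in miR-28CT and 38.4 and 15.3 in miR-28BIO. Its log2 fold change of 0.70 (SE 0.83) became -0.07 without miR-28CT 2.

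Assembly factors were mixed, with 4 of 7 below 0 and sums of 86.4 and 117 against 57.2 and 93.4. Their log2 difference was -0.46 (arms overlapping, exact permutation p = 0.667). With a library left out, it ran from -0.81 (without miR-28BIO 2) to -0.11 (without miR-28BIO 1). The overlap is that of the coding sums, which leave out the non-coding record of PSMG1 (9.04, 18.4, 6.55 and 0). The most abundant was PSMG2, a chaperone of the alpha ring, at 30.4 and 35.8 against 14.8 and 23.0. PSMD10, a chaperone of the ATPase base also known as gankyrin, had the lowest mean, at 11.1 and 5.56 against 5.08 and 2.50, with a log2 fold change of -1.12 (SE 0.62; -0.62 without miR-28CT 1 or without miR-28BIO 2). PSMG2 and PSMD10 both had arms apart.

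PSMG3 and PSMG4 form a chaperone pair, and their values went opposite ways. PSMG3 was at 8.85 and 33.7 in miR-28CT and 3.03 and 14.4 in miR-28BIO (log2 fold change -1.37, SE 1.10). Its log2 fold change was -0.26 without miR-28BIO 1, -0.41 without miR-28CT 2, -2.33 without miR-28CT 1 and -2.475 without miR-28BIO 2. PSMG4 was at 4.04 and 6.83 against 5.84 and 15.4 (log2 fold change 0.84, SE 0.67). Its log2 fold change was 0.15 without miR-28BIO 2, 0.47 without miR-28CT 1, 1.21 without miR-28CT 2 and 1.53 without miR-28BIO 1. In both genes the arms overlapped. PSMD5, a chaperone of the base that leaves the finished cap, was at 12.3 and 9.78 against 14.4 and 15.0, with arms apart (log2 fold change 0.42, SE 0.42).

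Activators summed to 62.8 and 46.6 in miR-28CT and 62.4 and 36.2 in miR-28BIO (log2 difference -0.19, exact permutation p = 0.667), and the sign turned without miR-28CT 1 (0.03) or miR-28BIO 2 (0.21). PSME2, an interferon-induced cap subunit that assembles with PSME1, had 13.1 and 12.7 against 4.55 and 6.37. The arms did not overlap, and the log2 fold change was -1.24 (SE 0.43; limma with Benjamini-Hochberg adjustment, adjusted p = 1.00). RefSeq lists 6 pseudogenes of PSME2. PSME3, the nuclear activator and the gene with the highest mean of the group, was at 15.9, 20.2, 17.9 and 15.0, without a difference between arms beyond its spread.

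PSME4, a large activator of nuclear proteasomes with the longest main transcript of the list (7099 bases), was at 13.2 and 7.18 in miR-28CT and 22.7 and 11.9 in miR-28BIO. It was higher in miR-28BIO of the same number in both cases, but the arms overlapped (log2 fold change 0.75, SE 0.60; 0.29 without miR-28BIO 1, 0.32 without miR-28CT 2 and 1.21 without miR-28BIO 2). PSMF1, an inhibitor of the core in the test tube, was at 8.20 and 7.82 against 12.6 and 11.1. The arms did not overlap (log2 fold change 0.56, SE 0.40; exact permutation p = 0.33 for the log2 of the sum).

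Of the genes that match the symbol pattern only, PSMC3IP was at 6.34 and 1.48 in miR-28CT and at 0 and 0.877 in miR-28BIO. Its log2 fold change of -3.35 (SE 1.46) rests on the pseudocount, since 1 library is at 0, and was -0.67 when its non-coding records were added. PSME3IP1 was at 9.67, 3.24, 9.07 and 3.58. Without these 2 genes, 33 of 42 had a negative log2 fold change and the median stayed at -0.56.

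Differences between replicates were as large as those between arms. Over the 44 genes, the median absolute log2 fold change between arms was 0.74, and the median absolute log2 difference between replicates 1 and 2, averaged over the arms, was 0.75. Over all genes tested, the values were 0.41 and 0.85. Across the 42 proteasome genes above 0 in all libraries, the replicate difference in miR-28CT and that in miR-28BIO, which share no library, correlated with Pearson's r = 0.91 and Spearman's rho = 0.90. Genes of 1 complex are not independent replicates, and no test was made. Over 9969 coding genes above 0 in all libraries, r was 0.88 and rho 0.87.

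The direction of the replicate difference varied among proteasome genes as among all genes. Replicate 2 exceeded replicate 1 in both arms for 21 of the 44, against 42.5% of all genes, and lay below it in both for 15, against 40.9%. PSMB4, PSMB5 and PSMB6 of the inner ring were among the former, while PSMD7, PSME1 and PSMA4 were among the latter. PSME1, the partner of PSME2, was at 20.6 and 6.51 in miR-28CT and 17.3 and 2.91 in miR-28BIO. The source of the replicate difference was not tested.

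**Figure D2:**
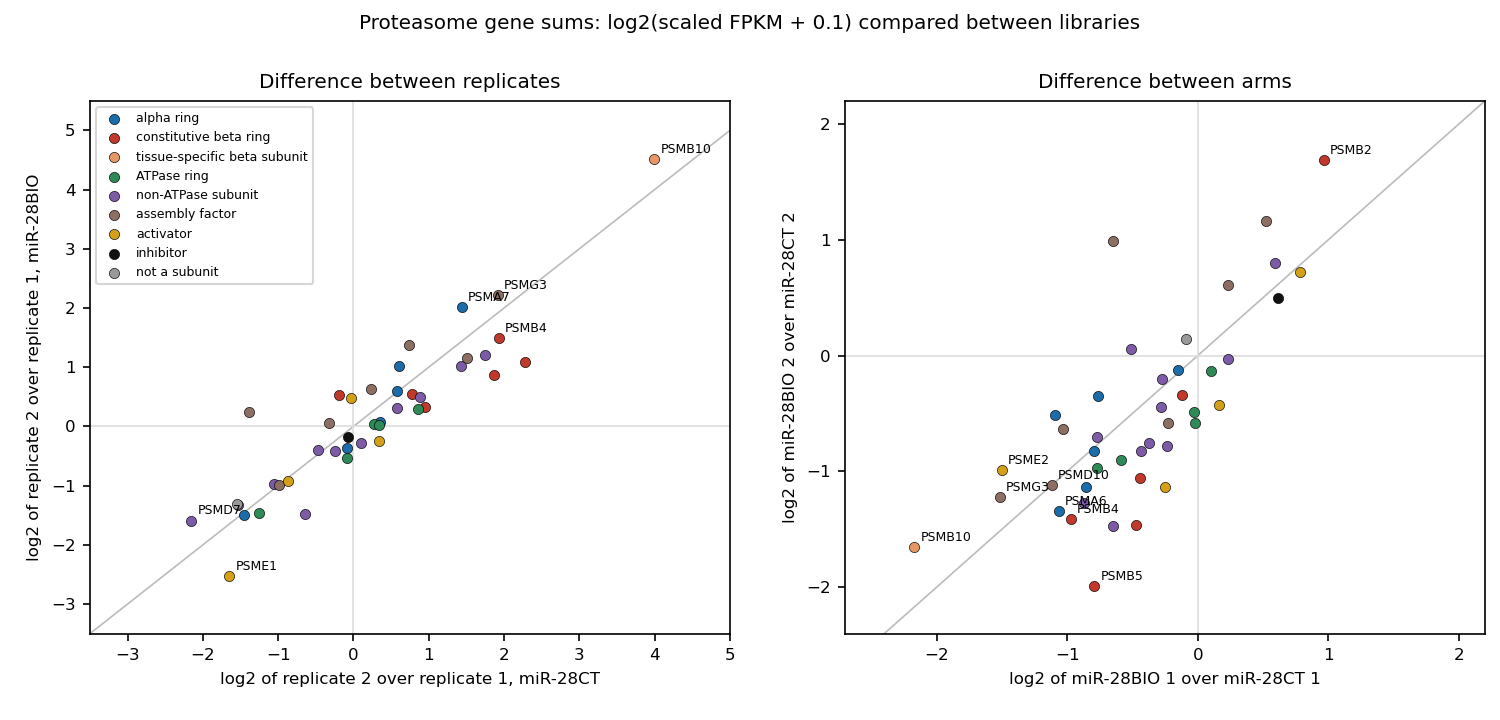
Each point is 1 of the 42 proteasome genes tested and above 0 in all libraries, coloured by role, with log2 ratios on both axes and the line of equality in grey. Left, replicate 2 over replicate 1 in miR-28CT and in miR-28BIO (r = 0.91), with PSMB10 at the upper end; right, miR-28BIO over miR-28CT within replicate 1 and within replicate 2, where most points lie below 0 on both axes and PSMB2 is highest.

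Transcript length moved with the difference between arms. Main transcripts of the 44 genes had a median length of 1502.5 bases, against 2976 for the 10380 coding genes tested. Across the 44 genes, length and log2 fold change had a Spearman's rho of 0.53, across the 42 above 0 in all libraries 0.62, and across the 10380 coding genes 0.44. These correlations are across genes measured in the same 4 libraries and are given without a test.

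The 9 proteasome genes with a main transcript of at least 3000 bases had a median log2 fold change of 0.42, and 6 of them were above 0. The 35 shorter genes had a median of -0.74, and 4 were above 0. In coding genes as a whole, the medians were 0.09 for 5146 long and -0.34 for 5234 shorter genes. Below 1000 bases, the median was -0.97 for 11 proteasome genes and -0.87 for 713 coding genes. Between 1000 and 1500 bases, it was -0.80 for 11 and -0.54 for 961, and between 1500 and 2000 bases -0.74 for 9 and -0.35 for 1189. Of the genes above 0, PSMB2, PSMD1, PSMD5, PSMD11, PSME4 and PSMF1 belong to the 9 long genes. PSMG4, at 0.84, has 821 bases and does not, nor do PSMA3, PSMG1 and PSME3IP1. PSMA3 and PSMG1 are below 0 when their non-coding records are added. The part of length in the lower values of the list was not tested.

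**Figure D3:**
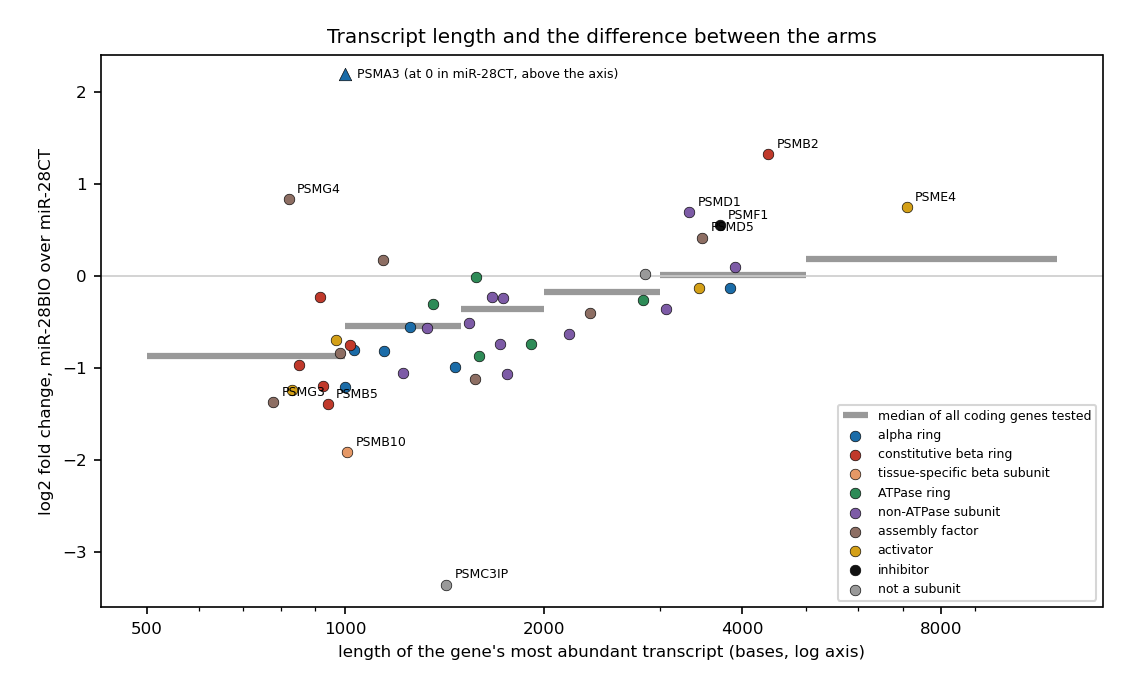
Log2 fold change of the 44 proteasome genes tested against the length of their most abundant transcript (log axis), coloured by role, with grey bars for the median of all coding genes tested in each length class. Genes under 1000 bases lie mostly near or below -0.87, the median of coding genes of that length, and 6 of the 10 genes above 0 have at least 3000 bases; PSMA3, at 0 in miR-28CT, is drawn as a triangle.

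The share of genes with an AGCTCCT match was not higher among proteasome genes. At least 1 match was found in 12 of 50 reference transcripts (24.0%), against 31.7% of 20020 coding genes, with median lengths of 1529 and 2885 bases. Coding sequences held one in 8 genes (16.0%, against 19.2%) and 3′UTRs in 7 (14.0%, against 13.8%). The 12 were PSMA4, PSMA5, PSMB6, PSMB11, PSMC1, PSMC3, PSMD5, PSMD9, PSME3, PSME3IP1, PSME4 and PSMF1.

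PSMF1 held 4 matches, 1 coding and 3 in the 3′UTR, of which the last lies beyond the end of the gene in the deposited tables. Matches of PSMA4 and PSMC1 also lie beyond it. The 9 tested genes with a match inside the deposited gene bounds had a median log2 fold change of -0.01 and a median length of 3437 bases. The 35 without had -0.74 and 1331 bases. Match and length thus went together, and their parts cannot be told apart. Among the genes whose matches are shown above, PSMF1 and PSMD5 had both miR-28BIO values above the controls, PSME4 was higher only within each replicate number, and PSMB6 was lower within each. PSMD9, a chaperone of the base with a 3′UTR match, was at 7.19 and 20.6 against 6.12 and 13.7. A match is a description of these letters and not an observed binding site.

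Single transcripts also lay mostly below 0, and more of their values were listed at 0. Of the 122 entries, 51 were at 0 in all libraries, and 66 of the others entered the test over 15587 transcripts. limma called 0 higher and 0 lower after Benjamini-Hochberg adjustment, among the proteasome genes and over all transcripts (0%). At an unadjusted p under 0.05, 2 proteasome transcripts were lower (background 1.49%) and 0 higher (background 2.09%). The 2 belong to PSMC3IP and PSMD10 and were at 0 in both miR-28BIO libraries, and none of the 3 genes below this cut as sums was among them. Arms did not overlap for 14 lower (background 12.0%) and 3 higher (background 11.5%). The median log2 fold change was -0.53, against -0.08 over all transcripts, and 47 of 66 were below 0 (background 54.1%).

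Which transcript of a gene held the FPKM changed between libraries, and 22 of the genes had several transcripts above 0. In PSMA3, an alpha subunit, the split ran between coding and non-coding records. Its coding transcripts were at 0 and 0 in miR-28CT and summed to 18.1 and 5.07 in miR-28BIO, from NM_002788 in replicate 1 and NM_152132 in replicate 2. The non-coding record NR_038123 of the same gene held 35.8, 34.2, 15.6 and 25.7. With it, PSMA3 was at 35.8 and 34.2 against 33.7 and 30.8, and the log2 fold change was -0.12. The coding sum alone thus does not give the level of PSMA3, and no fold change is given for it.

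PSMG1, the partner of PSMG2, had coding sums of 12.5 and 4.70 against 7.96 and 9.44, spread over 3 transcripts, while the non-coding NR_049728 held 9.04, 18.4, 6.55 and 0. Added together, they gave 21.5 and 23.1 against 14.5 and 9.44. The arms then did not overlap, and the log2 fold change turned from 0.17 (SE 0.63) to -0.93. PSMG4 sat mainly on NM_001128591 in 3 libraries and on NM_001128592 in miR-28CT 2, and PSMB2 was split over 3 transcripts of similar length. Single transcripts of these genes therefore have no settled level.

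**Figure D4:**
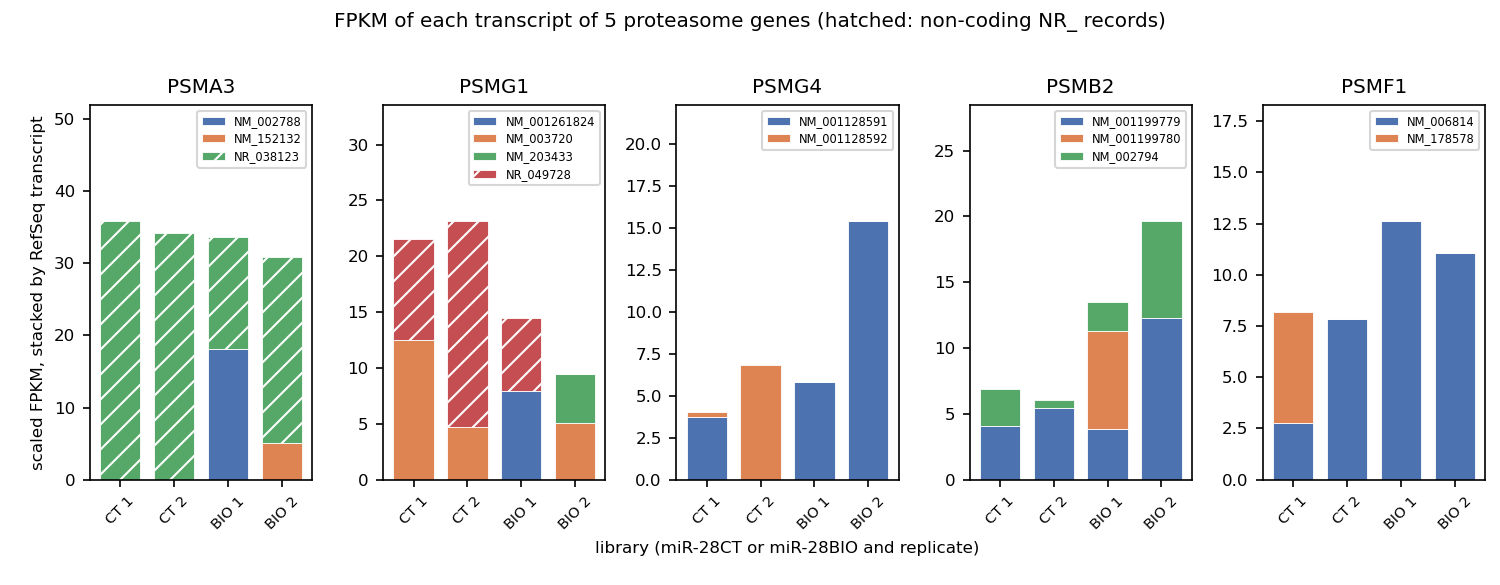
Scaled FPKM of each RefSeq transcript, stacked, in the 4 libraries for PSMA3, PSMG1, PSMG4, PSMB2 and PSMF1, with non-coding records hatched. PSMA3 sums to between 30.8 and 35.8 in each library, although its coding transcripts are at 0 in miR-28CT.

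In the wider ubiquitin-proteasome pathway, the median lay near that of all genes. Of 32 cofactors, shuttles and regulators listed, 31 were tested, and limma with Benjamini-Hochberg adjustment called 0 (background 0.0262% lower and 0% higher). Their median log2 fold change was -0.10, with 18 below 0 (58.1%, against 55.5% of all genes) and 13 above. At an unadjusted p under 0.05, 0 were lower and 1 was higher (background 0.864% and 2.26%), shares near the background. The 1 was UBQLN1, a shuttle that carries ubiquitinated proteins to the proteasome, at 30.5 and 22.6 in miR-28CT and 119 and 120 in miR-28BIO (log2 fold change 2.18, SE 0.51; limma with Benjamini-Hochberg adjustment, adjusted p = 1.00). Both miR-28BIO libraries lay far above both controls.

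Of the 31 cofactors, 14 were lower within both replicate numbers, against 38.7% of all genes, and 12 were higher within both, against 30.1%. Arms were apart for 3 lower, against 12.6%, and 7 higher, against 12.4%. UBB, which encodes ubiquitin, was among the 3, at 81.2 and 97.7 against 38.5 and 50.6. RPS27A was at 42.7 and 100.3 against 19.6 and 54.7, with overlapping arms. ADRM1, a ubiquitin receptor of the cap, was at 27.7 and 94.2 against 35.3 and 161. The transcription factor of proteasome genes NFE2L1 was at 12.1, 8.78, 12.5 and 10.6, with overlapping arms.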

How the data were processed

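The authors checked reads with FastQC 0.10.1, aligned them to hg38 with TopHat2 2.0.9 and estimated transcript abundance with Cufflinks 2.1.1, as their notes and methods state. The deposited values are FPKM of RefSeq transcripts with Cufflinks intervals, and the deposited coverage, a signal, served only to estimate reads behind the FPKM at 50 bases per read. How Cufflinks used strand is not given in the sources used here. Of 221 proteasome values above 0, 52 lay outside their own deposited interval, so the intervals were not used.

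Entries that Cufflinks marked OK in each library were scaled by median-of-ratios factors (1.06, 0.850, 1.06 and 1.09) from the 11650 above 0 in all 4, and summed per gene over NM_ entries, or NR_ entries where a gene had no other. Features with a mean of at least 0.5 were tested on log2(value + 0.1) with limma 3.58.1 (lmFit, eBayes with a trend, R 4.3.3) and Benjamini-Hochberg adjustment at 0.05, without a block. The fold changes understate the change of low genes. The unit is not counts, so no count test was run. Role sums were compared by two-sided exact permutation tests. The paper describes the pull outs as 2 biological replicates. With 2 libraries per arm, p-values measure the spread between these samples, part of which may be technical.

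Matches to miR-28-5p were searched in GENCODE 44 transcripts on the sense strand, and pseudogenes were counted by name in the RefSeq table of GRCh38. The other software was matplotlib 3.10.9, scipy 1.17.1, pandas 2.3.3 and numpy 2.4.6 under Python 3.11.15. Of the scripts, only the limma fit was tested on simulated data. Its pass mark applied at a spread far below that of these libraries.

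The genes, the lists and their roles were chosen with earlier results of these data known. The genes given in detail are those with arms apart and means at least 2-fold apart, the 5 highest and 5 lowest fold changes, the most and least abundant of each role, the 3 with the most divergent transcript shares and those with a match. Others were named after their values were seen. Some genes of the lists are not reported here, although counts over the lists include them. Alternatives were other pseudocounts, filters, scalings and statuses, no trend, the replicate block and leaving out each library. Adding NR_ records to the sums was chosen after seeing the data.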

Additional observations from a re-analysis of the deposited data

Results flagged for a closer look

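PSMD6-AS2, a non-coding RNA gene listed outside the coding sums, lies antisense to the lid subunit gene PSMD6. Its scaled FPKM was 1.39 and 1.08 in miR-28CT and 4.54 and 1.93 in miR-28BIO, a mean of 3.24 in miR-28BIO. Both miR-28BIO values exceed both controls, as they did for 12.4% of all genes tested. No other non-coding record with a symbol of this pattern did so. PSMD6 itself was at 20.6 and 13.1 against 13.1 and 4.68. Whether reads were assigned by strand is not given in the sources used here, so reads of the 2 genes cannot be told apart. Among all genes tested, its log2 fold change was 1.22 (SE 0.60; limma with Benjamini-Hochberg adjustment, adjusted p = 1.00).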

How the results depend on the processing

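With 2 libraries per arm and FPKM in place of counts, only differences well above the replicate spread could pass, and no value per gene has a counting error. No proteasome gene was called under any alternative run, at the level of genes or of transcripts. The median log2 fold change of the proteasome genes stayed negative in all of them: -0.39 without scaling, -0.46 with upper quartile scaling and -0.62 to -0.26 when a library was left out. For transcripts it was -0.36 without scaling and -0.56 to -0.23 with a library left out. At an unadjusted p under 0.05, 0 proteasome genes were lower without scaling (against 0.523% of all genes), with upper quartile scaling (0.645%) or without a trend (0.785%), and 1 was higher without a trend (2.14%). In fits with a library left out, the lone library is assumed to vary like the others.

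Over all genes, limma with Benjamini-Hochberg adjustment called 3 genes lower and 0 higher. The 3 became 0 with a pseudocount of 1, with no filter, without a trend and without any 1 library (0 to 0). Leaving out a library makes an overlap of arms less likely by construction: 18 to 28 proteasome genes were then lower and 5 to 9 higher with arms apart (transcripts: 22 to 35 and 7 to 12). Over all genes, the shares were then 28.1% to 38.8% lower and 25.5% to 31.9% higher (transcripts: 25.5% to 37.5% and 23.9% to 30.8%).

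No label states that a number marks a shared culture. Same-numbered libraries deviated together (r = 0.59, rho = 0.79 over 11462 genes), which with 2 numbers is a hint only. With the replicate block, 1 gene was called higher and 5 lower, and no proteasome gene (lowest adjusted p 0.0994 by limma with Benjamini-Hochberg adjustment; unadjusted p under 0.05 for 6 higher and 18 lower, against 9.43% and 14.1% of all genes). With NR_ records added and the replicate block, an alternative chosen after seeing the data, 39 genes were called higher and 22 lower, again none of the proteasome genes. The log2 difference of the ATPase ring was -0.28 within replicate 1 and -0.59 within replicate 2.

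Without scaling, the log2 difference was -0.59 for the alpha ring, -0.26 for the ATPase ring and 0.73 for PSMF1 (0.67 with upper quartile scaling). Leaving out a library turned the sign of the tissue-specific beta subunits (-4.40 to 0.37), the activators (-0.58 to 0.21), the pair that are not subunits (-1.33 to 0.43), PSMB10 (-4.17 to 0.34) and PSMD1 (-0.072 to 1.46). With NR_ records, PSMA3 turned from above 0 to -0.12 and PSMG1 from 0.17 to -0.93. Apart from the scalings, the left-out libraries and the construction of the sums, the cause was not tested.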
